A study of Rattus norvegicus with 4 samples.

Results

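The 10 genes described here carry out MHC class II antigen presentation in the rat: the classical chains RT1-Ba, RT1-Bb, RT1-Da and RT1-Db1, the peptide exchange chains RT1-DMa and RT1-DMb, the invariant chain gene Cd74, the transactivator gene Ciita, and the costimulatory genes Cd80 and Cd86. They were chosen by symbol, with earlier results of these data known. Each of the 10 had exactly 1 row on the array, among 14506 genes on an array of 29214 rows. Their values were measured in retroperitoneal white adipose tissue, a fat depot at the back of the abdomen, of WNIN/Ob rats, a strain with obese and lean phenotypes. There were 2 obese and 2 lean rats, all male, 4 months old, untreated and on stock diet, and each gave 1 Affymetrix Rat Gene ST array. The labels give the phenotype but not the genotype, and the RT1 haplotype of the rats is not given in the sources used here.

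MHC class II molecules are pairs of an alpha and a beta chain that display peptides from engulfed proteins to CD4+ T cells. In rats the RT1-B pair is the counterpart of human HLA-DQ and the RT1-D pair that of HLA-DR. New pairs travel with the invariant chain, which plugs the groove and steers them to endosomes. There, cathepsins trim the invariant chain, and the RT1-DM pair helps its last fragment out so that a peptide can bind. Ciita is the master transcription activator of the class II chain genes, and dendritic cells, B cells and macrophages are the usual presenting cells. A T cell also needs a costimulatory signal, which Cd80 and Cd86 give through Cd28. In adipose tissue, macrophages, and also adipocytes, have been described as presenting cells.

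Class II promoters are known for an X box, bound by the RFX complex, and a Y box, bound by NF-Y, on which Ciita assembles. The stretches around these elements are shown because Ciita, one of the 10 genes, acts through them. As searched here, all 4 classical chains held the letters of the Y box and 2 held the pair. Letters of the X box core matched in 3 of them, against 48.6% of all rat promoters. In RT1-Bb that match did not begin 10 to 40 bases before a Y box on the same strand. The stretches come from RefSeq promoters of build GRCr8, the BN reference strain, and run 5′ to 3′ on the strand of the gene. Each promoter covers 250 bases before the start of the gene and 50 after it. Capitals mark the X box core AGNAAC and the Y box ATTGG where ATTGG begins 10 to 40 bases after the beginning of AGNAAC, and otherwise only the first ATTGG.
RT1-Da: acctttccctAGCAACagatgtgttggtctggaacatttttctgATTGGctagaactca
RT1-Db1: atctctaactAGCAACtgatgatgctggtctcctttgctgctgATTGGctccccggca
RT1-Ba: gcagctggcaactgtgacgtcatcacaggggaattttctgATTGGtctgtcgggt
RT1-Bb: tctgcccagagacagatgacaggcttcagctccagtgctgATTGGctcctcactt
RT1-DMa: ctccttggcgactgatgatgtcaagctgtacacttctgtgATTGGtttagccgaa
RT1-DOa: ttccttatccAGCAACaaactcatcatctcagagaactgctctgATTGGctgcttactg
RT1-DOb: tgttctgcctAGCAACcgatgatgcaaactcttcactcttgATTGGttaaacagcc

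The RT1-Da stretch lies at chr20:4515322-4515380 on the plus strand, that of RT1-Db1 at chr20:4560228-4560285 on the minus strand, that of RT1-Ba at chr20:4576974-4577028 on the plus strand and that of RT1-Bb at chr20:4604165-4604219 on the minus strand. Those of RT1-DMa, RT1-DOa and RT1-DOb lie on the minus strand at chr20:4712385-4712439, chr20:4758516-4758574 and chr20:4627592-4627647. Both strands were searched, and on the same strand the motifs cannot overlap. A promoter was found for 8 of the 10 genes, and the X box core was present in 5 of them. The pair of motifs was present in the promoters of 2 of them, RT1-Da and RT1-Db1, where the Y box began 34 and 33 bases after the X box core. The Y box was present in 7 of the 8 genes with a promoter, including all 4 classical chains. Of 33469 rat promoters in the table, 1.70% held the pair, 37.5% held the Y box and 48.6% held the X box core on either strand. The pair was also present in all 4 promoters found for the other class II chains, RT1-DOa, RT1-DOb, RT1-Db2 and RT1-Ha. A match of letters is a description of these windows and not a measured binding site.

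The comparison asked how class II expression in fat of obese rats differs from that in fat of lean rats. Each obese rat exceeded each lean rat for all 10 genes, a pattern seen in 26.4% of all genes tested. The differences, given throughout as obese minus lean on the log2 intensity scale, ran from 0.69 for Cd86 to 2.65 for RT1-Da. Their median was 1.37, against 0.00047 over all genes tested. By limma with Benjamini-Hochberg adjustment over all 14506 genes at a threshold of 0.05, 1 of the 10 genes rose (RT1-Da), none fell and 9 did not pass, where 0.772% of all genes rose and 0.0689% fell. At an unadjusted p under 0.05, all 10 were higher, against 9.93% of all genes. Of the 10, 8 were higher by at least 1, against 4.62% of all genes. For single genes, differences with 1 rat left out are given without a test, because 1 group then has a single array. With 2 rats against 2, the exact two-sided permutation test gave p = 0.333 for each gene, the smallest it allows, so a call depends on the variance that limma estimates from many genes at once.

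**Figure D1:**
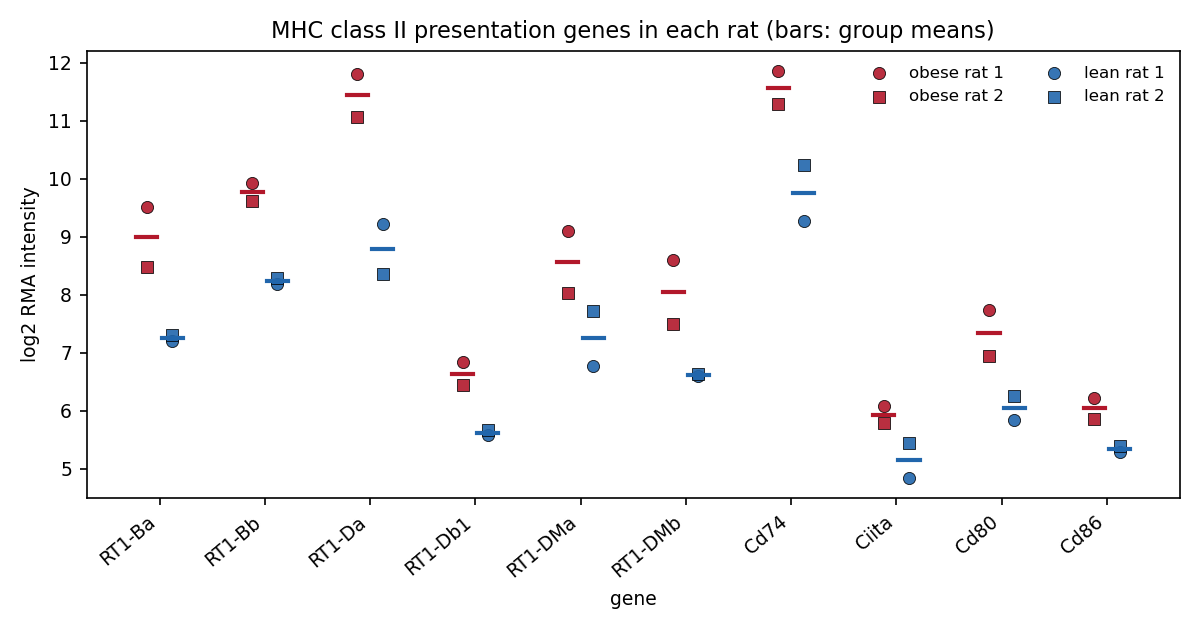
Log2 RMA intensity of each of the 10 class II presentation genes in each rat, with obese rats in red left of lean rats in blue, circles for rat 1, squares for rat 2 and short bars for group means. For every gene both red points lie above both blue points, and obese rat 1 lies above obese rat 2 for all 10.

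The array values of these 4 rats were not alike in every respect. Skeletal muscle markers had a median log2 intensity of 5.49 and 5.22 in obese rats 1 and 2, against 11.5 and 5.37 in lean rats 1 and 2, so lean rat 1 stood apart, with Acta1 at 12.9 and Ckm at 12.0. Of 14 muscle markers none passed, and the smallest p values were those of Tnnt3 at -3.21 and Mybpc1 at -3.18. A mesothelial marker, Krt19, was at 4.22 and 4.32 in obese rats 1 and 2, against 8.53 and 4.62 in lean rats 1 and 2, and the 6 mesothelial markers had a median of -0.92, with Krt18 at -1.24 and Gpm6a at -1.01. None of them passed, nor did any of 9 endothelial markers (median -0.28, Emcn at -1.19 and Plvap at -0.89). The correlation over all genes was 0.98 between the obese arrays and 0.94 between the lean arrays, against 0.93 to 0.94 between groups. The part of these differences between rats in the class II values was not tested. Without lean rat 1, the median difference of the 10 class II genes was 1.21, and without lean rat 2 it was 1.54. Without obese rat 1 it was 0.89, and without obese rat 2 it was 1.77. The adipocyte markers were present on all arrays, with all 11 measured above the near-background level (median log2 intensities of 10.2 and 10.5 in obese rats, against 9.99 and 10.2 in lean rats). None of them passed, with Adipoq at 0.15, Plin1 at 0.26, Lep at 1.56 and Cfd at -0.83. Values below the 95th percentile of 188 olfactory and vomeronasal receptor genes on the same array (4.48 and 4.55 in obese rats, against 4.68 and 5.24 in lean rats) were taken as near background, and all 10 class II genes were above it on each of the 4 arrays.

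Among the classical chains, RT1-Da, the alpha chain of the RT1-D pair, had the largest difference. Its log2 intensity was 11.8 and 11.1 in obese rats 1 and 2, against 9.21 and 8.35 in lean rats 1 and 2. The obese rats were both above the lean rats, by 1.85 for the closest pair of rats. RT1-Da rose by 2.65 ± 0.41 (SE, n = 2 per group), which is 6.29-fold, with a limma adjusted p of 0.035. It ranked 28 of 14506 genes by difference. The call was lost with quantile normalization between arrays (2.43, limma adjusted p = 0.052) and with arrays centred on their medians (2.75, limma adjusted p = 0.056). It was also lost when all rows of the table were tested together (2.65, limma adjusted p = 0.065). With 1 rat left out, the difference was 2.23 to 3.08.

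RT1-Db1, the beta chain that pairs with RT1-Da, had a smaller difference. Its log2 intensity was 6.84 and 6.44 in obese rats 1 and 2, against 5.58 and 5.66 in lean rats 1 and 2. The groups did not overlap, and the lean rats were within 0.08 of each other. The difference was 1.02 ± 0.26 (SE), or 2.03-fold, and did not pass (limma adjusted p = 0.140). Class II beta chains vary between haplotypes and share sequence with neighbouring copies such as RT1-Db2, so the signal of this row is uncertain as to gene copy.

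The RT1-B pair was higher in the obese rats as well, without passing the test. RT1-Ba, the alpha chain, was at 9.51 and 8.47 in obese rats 1 and 2, against 7.21 and 7.31 in lean rats 1 and 2. Its 2 obese rats differed by 1.04, while the lean rats nearly coincided, and the difference was 1.73 ± 0.39 (SE), 3.32-fold (limma adjusted p = 0.0995). Without obese rat 2 it was 2.25, and without obese rat 1 it was 1.21. RT1-Bb, the beta chain, was at 9.92 and 9.61 in obese rats 1 and 2, against 8.19 and 8.30 in lean rats 1 and 2. Within each group its values lay close together, and the groups were 1.31 apart at their nearest. The difference was 1.52 ± 0.30 (SE), 2.87-fold (limma adjusted p = 0.075), and it was 1.47 without lean rat 1. The alpha and beta chains of this pair had intervals that overlap (95% confidence interval 0.84 to 2.62 for RT1-Ba and 0.82 to 2.22 for RT1-Bb).

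Cd74, which encodes the invariant chain, had the second largest difference. Its log2 intensity was 11.9 and 11.3 in obese rats 1 and 2, against 9.27 and 10.2 in lean rats 1 and 2. The groups were 1.04 apart at their nearest, and the lean rats differed by about as much, 0.96, with lean rat 1 the lower. The difference was 1.81 ± 0.41 (SE), 3.52-fold, and did not pass (limma adjusted p = 0.103). It was 2.30 without lean rat 2 and 1.33 without lean rat 1. Without obese rat 2 it was 2.10, and without obese rat 1 it was 1.53. The lean rats were ordered the opposite way for RT1-Da, which was higher in lean rat 1 by 0.86.

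The peptide exchange chains were higher in obese rats, with a wide spread between those rats. RT1-DMa was at 9.10 and 8.03 in obese rats 1 and 2, against 6.78 and 7.72 in lean rats 1 and 2. Obese rat 2 and lean rat 2 were only 0.31 apart, the closest approach of the groups among the 10 genes, and the difference was 1.31 ± 0.45 (SE; limma adjusted p = 0.250). RT1-DMb was at 8.59 and 7.50 in obese rats 1 and 2, against 6.61 and 6.63 in lean rats 1 and 2. Here the lean rats coincided and both obese rats were higher, by 0.87 at the nearest. The difference was 1.43 ± 0.38 (SE; limma adjusted p = 0.156). Obese rat 1 exceeded obese rat 2 by 1.07 for RT1-DMa and by 1.09 for RT1-DMb, the widest gaps between the obese rats among the 10 genes. Without obese rat 2, RT1-DMa was at 1.85 and RT1-DMb at 1.98. Leaving out obese rat 1 gave 0.78 and 0.88.

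Ciita, the transactivator, had the second smallest difference of the 10 genes. It was at 6.08 and 5.80 in obese rats 1 and 2, against 4.85 and 5.44 in lean rats 1 and 2. In lean rats 1 and 2 Ciita lay close to the near-background levels of 4.68 and 5.24. Both obese rats were above both lean rats, by 0.35 at the nearest, which is less than the 0.60 between the lean rats. The difference was 0.79 ± 0.28 (SE), 1.73-fold (limma adjusted p = 0.257). Its size was 0.49 without lean rat 1 and 1.09 without lean rat 2.

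The costimulatory genes differed from each other in size. Cd80 was at 7.74 and 6.94 in obese rats 1 and 2, against 5.84 and 6.25 in lean rats 1 and 2. The groups were 0.69 apart at their nearest, and the difference was 1.30 ± 0.34 (SE), 2.46-fold (limma adjusted p = 0.145). For Cd80, omitting obese rat 2 raised the difference to 1.70, whereas omitting obese rat 1 lowered it to 0.90. Cd86 was at 6.23 and 5.85 in obese rats 1 and 2, against 5.29 and 5.40 in lean rats 1 and 2. In lean rat 2 it lay close to the near-background level of 5.24. Cd86 had the smallest difference of the 10, 0.69 ± 0.25 (SE), 1.62-fold (limma adjusted p = 0.260). The 95% confidence intervals, 0.51 to 2.08 for Cd80 and 0.12 to 1.27 for Cd86, overlap, and the difference between these genes was not tested.

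**Figure D2:**
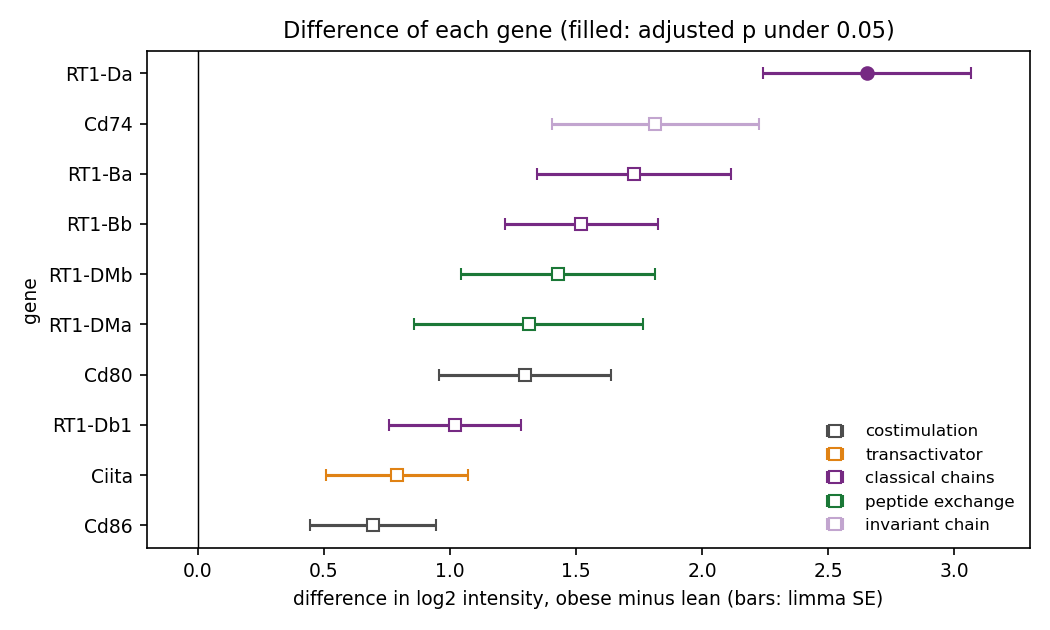
Difference in log2 intensity, obese minus lean, of each of the 10 genes, ordered by size, with bars for the limma standard error, colours for the role of the gene and a filled point for the gene with an adjusted p under 0.05. RT1-Da lies highest at 2.65 and is the filled point, and Ciita and Cd86 lie lowest at 0.79 and 0.69.

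The order within each group was largely shared among the genes. Obese rat 1 was above obese rat 2 for 10 of 10, by a median of 0.66, while over all genes it was the higher in 45.5%. Lean rat 1 was below lean rat 2 for 9 of 10, RT1-Da being the exception, and over all genes lean rat 1 was the higher in 41.7%. The median of lean rat 1 minus lean rat 2 was -0.11 for the 10 genes, much like the -0.10 over all genes. Replicates of a group have no labelled difference, so these gaps show the spread between rats. The genes with the most similar profile to the mean of RT1-Ba, RT1-Bb, RT1-Da, RT1-Db1 and Cd74 over the 4 arrays, among 7245 genes at or above the median level, were Myo1f, St8sia4, Atp8b4, Cybb and Mrc1. Their distances from that mean profile were 0.11 to 0.20 on the log2 scale. St8sia4, a polysialyltransferase gene, was at 1.86 and Atp8b4 at 1.65. Mrc1, the mannose receptor of macrophages, was at 1.61 and Cybb, the catalytic subunit of the phagocyte NADPH oxidase, at 1.61. These genes were chosen by likeness to a profile that was higher in both obese rats. Their differences follow from that choice and are no separate result. Likeness over 4 arrays is a description.

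The other class II chains on the array had differences near 0. RT1-DOa, a chain of the DO pair that restrains DM, was at 5.98 and 5.37 in obese rats 1 and 2, against 5.63 and 5.81 in lean rats 1 and 2. The groups overlapped, and the difference was -0.05 ± 0.28 (SE), with a 95% confidence interval from -0.70 to 0.60. RT1-DOb, its partner, was at 5.48 and 5.13 in obese rats 1 and 2, against 5.18 and 4.97 in lean rats 1 and 2. It overlapped too, with a difference of 0.23 and an interval from -0.33 to 0.79, and was near background on 1 of the 4 arrays. RT1-Ha, at -0.04, was near background on all of them. None of these 3 genes passed. The intervals of RT1-DOa and RT1-DOb ended below those of RT1-Da, RT1-Ba, RT1-Bb and Cd74. They overlapped those of RT1-Db1 (0.42 to 1.62), RT1-DMa (0.26 to 2.36) and RT1-DMb (0.54 to 2.32). The gap between any of these genes was not tested.

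Of 15 genes for class II processing and turnover, none passed in either direction, although 8 had an unadjusted p under 0.05, against 15.3% of all genes. Their median difference was 0.93, and for 11 of them, or 73.3%, each obese rat exceeded each lean rat, against 26.4% of all genes. The list was written with earlier results of these data known, so these shares only describe it. Ctsd, the lysosomal protease cathepsin D, was at 12.2 and 11.9 in obese rats 1 and 2, against 10.4 and 10.1 in lean rats 1 and 2. That is a difference of 1.76 ± 0.31 (SE; limma adjusted p = 0.0549), close to the threshold. Ctsz, cathepsin Z, was at 1.86 ± 0.33 (SE; limma adjusted p = 0.0554). Ifi30, the thiol reductase that unfolds antigens in endosomes, was at 1.95, the legumain gene Lgmn at 1.40 and Ctss, whose product makes late cuts in the invariant chain, at 1.32. With 1 rat left out, the median of the list lay between 0.70 (without obese rat 1) and 1.19 (without lean rat 2). Cathepsins H and B had smaller values, with Ctsh at -0.04 and Ctsb at 0.41.

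Of 18 genes for transcription of class II and interferon gamma signalling, none passed, and the median difference was 0.13. It was 0.26 with obese rat 2 left out and 0.23 with lean rat 1 left out. The subunits of the RFX complex, Rfx5, Rfxap and Rfxank, were at -0.03, -0.01 and -0.04, and the groups overlapped for each. Spi1, the myeloid transcription factor PU.1, was at 7.62 and 7.14 in obese rats 1 and 2, against 5.43 and 6.22 in lean rats 1 and 2. That gave 1.56 ± 0.34 (SE; limma adjusted p = 0.098), with both obese rats higher. Ifngr1, a chain of the interferon gamma receptor, was at 0.98 ± 0.31 (SE; limma adjusted p = 0.220). Ifng, the interferon gamma gene, was near background on all 4 arrays, so its value of -0.45 carries little information.

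Of 16 other genes of costimulation and checkpoint control, none passed (median 0.17, 4 with an unadjusted p under 0.05, or 25%, against 15.3% of all genes). Icos, a costimulatory receptor of T cells, was at 1.02 ± 0.23 (SE; limma adjusted p = 0.0995). However, Icos was near background in both lean rats, at 4.48 and 4.50, and above it in both obese rats. Without lean rat 1 the list had a median of 0.033, and without lean rat 2 one of 0.36. Cd83, which slows the turnover of class II and Cd86 on dendritic cells, was at 7.87 and 7.35 in obese rats 1 and 2, against 5.78 and 6.46 in lean rats 1 and 2. Its groups did not overlap, with a difference of 1.49 ± 0.34 (SE; limma adjusted p = 0.103). Cd28, the receptor of Cd80 and Cd86, was at 0.30 and Ctla4, their inhibitory receptor, at -0.21, both below the level taken as near background on all arrays.

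Class I presentation, which displays peptides made inside the cell, gave small values in the genes measured. The listed genes RT1-A1, RT1-A2, RT1-A1b, RT1-A1c, RT1-CE1 and Nlrc5 had no row of their own, so the values do not cover them. Of 22 genes none passed, 1 had an unadjusted p under 0.05 and the median was 0.19, and the share with each obese rat above each lean rat was 31.8%, against 26.4% of all genes. Leaving out obese rat 1 lowered that median to 0.025, leaving out lean rat 1 lowered it to 0.095, and leaving out obese rat 2 gave 0.30. B2m, the light chain of class I molecules, was at 12.0 and 11.9 in obese rats 1 and 2, against 11.8 and 12.0 in lean rats 1 and 2. The rats were close together and the difference was 0.06 ± 0.30 (SE). The immunoproteasome genes Psmb9 and Psmb8, next to the class II region, were at 0.82 and 0.47 (limma adjusted p = 0.269 and 0.413).

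**Figure D3:**
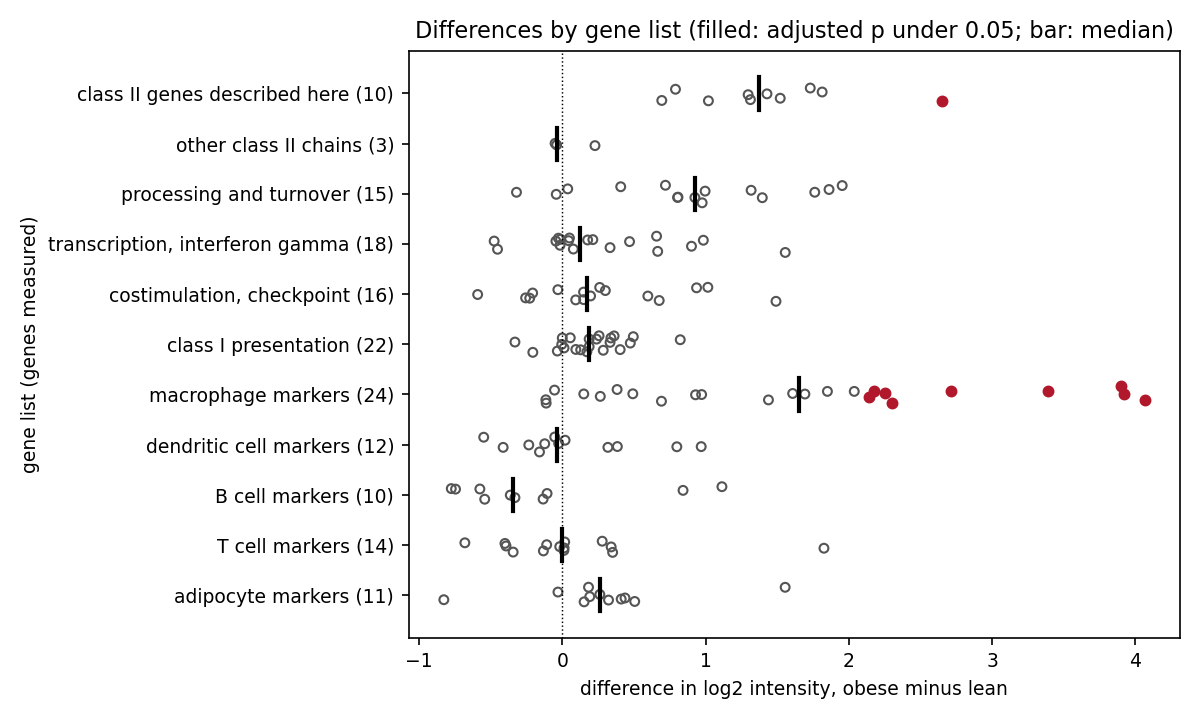
Difference in log2 intensity, obese minus lean, of every measured gene in 11 gene lists, with the number measured in brackets, filled points for an adjusted p under 0.05 and a vertical bar for the median of the list. The class II genes described here have a median of 1.37 and the processing genes 0.93, between the macrophage markers at 1.65 and the class I genes at 0.19.

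Markers of the presenting cell types were measured on the same arrays. In bulk tissue, fewer cells of a type and less RNA per cell cannot be told apart. Of 24 macrophage markers, 9 rose and none fell, against 0.772% and 0.0689% of all genes, with a median of 1.65. The list was written with earlier results of these data known, so this count describes the list and is no independent test. The summed intensity of these markers was 19884 and 13859 in obese rats 1 and 2, against 5082 and 4858 in lean rats 1 and 2. Obese rat 1 was above obese rat 2 for 21 of these 24 genes, against 45.5% of all genes, by a median of 0.55, the same order as for the class II genes. The largest rises were in Spp1, the gene of osteopontin, at 4.07, the lysozyme gene Lyz2 at 3.92, Gpnmb at 3.90 and the integrin gene Itgb2 at 3.39. Csf1r and Adgre1, which define macrophages, were at 0.93 and 0.69 without passing. The groups overlapped for 6 of the 24, with Cx3cr1 and Marco at -0.11, Cd163 at -0.05, Cd14 at 0.15 and the complement genes C1qa at 0.27 and C1qb at 0.49. With a rat left out, the median of the list lay between 1.22 (without obese rat 1) and 2.04 (without obese rat 2). Of the 24, 6 rose with quantile normalization, none at a threshold of 0.01 and 13 at 0.10. The macrophage list was higher in the same rats as the class II genes, and its part in their difference was not tested.

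Of 12 dendritic cell markers none passed, with a median of -0.04. Their summed intensity was 887 and 845 in obese rats, against 667 and 794 in lean rats. Of these 12, 6 were above the near-background level on all 4 arrays and 3 on none. For B cell markers the counts were 4 and 4 of 10, and for T cell markers 4 and 4 of 14. Of the macrophage markers, 23 of 24 were above it on all 4 arrays. A difference near 0 at the near-background level carries little information. Without Clec10a, the dendritic cell marker with the highest mean intensity, the other 11 summed to 484 and 533 in obese rats. In lean rats those 11 summed to 496 and 551. The sums of the macrophage and B cell markers were not split in this way. The defining markers Flt3 and Zbtb46 were at -0.16 and -0.05, and Irf4 and Clec10a, which macrophages can also express, were at 0.97 and 0.80. In lean rat 2, Zbtb46 and Irf4 were near background. Of 10 B cell markers none passed, with a median of -0.35 and a summed intensity of 487 and 399 in obese rats, against 411 and 582 in lean rats. The B cell marker Ms4a1 was near background on all 4 arrays. Within that list Cd37, also found on other leukocytes, was at 1.11 and Blk, a kinase of B cells, at -0.77, so its members differed in direction. Without lean rat 1 the median was -0.67, and without lean rat 2 the median was -0.025. Of 14 T cell markers none passed and the median was -0.0029, or -0.19 with lean rat 1 left out and 0.14 with lean rat 2 left out. Their summed intensity was 1456 and 849 in obese rats, against 587 and 589 in lean rats. Cd4 had the highest mean intensity of the T cell markers. Without Cd4 the other 13 markers summed to 346 and 317 in obese rats, against 330 and 406 in lean rats. Cd4 itself was at 1.83 ± 0.41 (SE; limma adjusted p = 0.103). Zap70, a kinase of T cell receptor signalling, was at -0.68 (limma adjusted p = 0.261), with both obese rats below both lean rats. Cd4, the co-receptor for class II, is also carried by rat macrophages, and Cd3e, part of the T cell receptor complex, was near background on all 4 arrays and at 0.02. Whether T, B or dendritic cells contribute to the class II signal was not tested.

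**Figure D4:**
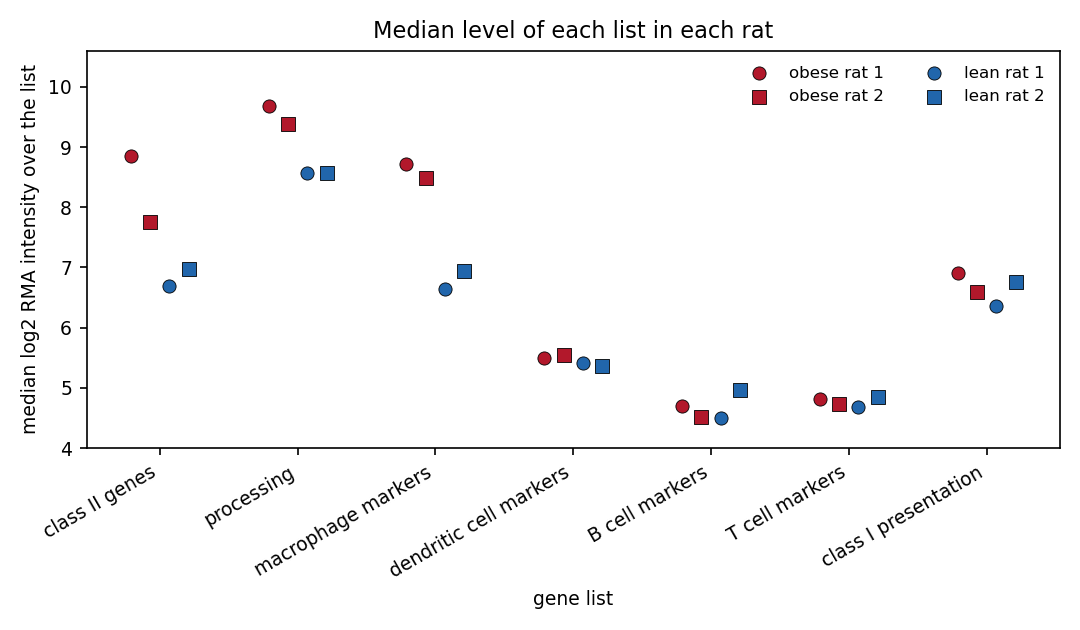
Median log2 RMA intensity of 7 gene lists in each rat, obese rats in red left of lean rats in blue, circles for rat 1 and squares for rat 2. The class II genes, the processing genes and the macrophage markers lie higher in both obese rats, and the medians of the dendritic, B and T cell markers lie between 4.50 and 5.55 on all arrays.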

How the data were processed

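Per the labels' protocols, Trizol RNA from 500 mg of frozen fat per rat was amplified from 100 ng and hybridised. The deposited intensity values are linear, and the submitters' processing notes name RMA. Software, version and build were not stated in the labels or files used. The distributions were not identical between arrays: over all rows the log2 medians ran from 5.32 to 5.48 and the interquartile ranges from 2.24, in lean rat 2, to 2.77.

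Intensities were transformed to log2 without a pseudocount. Rows were named through the platform annotation (15310 rows with 1 symbol, 323 with several and 13581 with none, the last 2 kinds left out), and the row with the highest mean was kept for the 527 genes with several. All 10 class II genes had 1 row and matched RefSeq by gene ID. limma 3.58.1 in R 4.3.3 (lmFit, then eBayes with a trend) compared 2 obese with 2 lean arrays without covariates, over 14506 genes, at a Benjamini-Hochberg adjusted p of 0.05. The number of arrays limits the precision. Groups come from the titles, with 1 rat per sample.

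The members and lists were chosen with earlier results of these data known. Named genes are the 10 members, up to 4 called genes per list or the 2 with the smallest p, defining markers and the 5 nearest profiles. Others were picked after seeing values: RT1-Ha, Ifi30, Lgmn, Ctss, Ctsh, Ctsb, Rfx5, Rfxap, Rfxank, Ifng, Cd28, Ctla4, B2m, Krt19, Cx3cr1, Marco, Cd163, Cd14, C1qa and C1qb. The fit was tested on simulated data. Alternatives were a replicate block, between-array quantile normalization, centring on medians, a fit without variance trend or with a robust one, weights for arrays, filters for dim genes, averaging rows, all rows, log2 of intensity + 16, other thresholds and each rat left out. Figures used matplotlib 3.10.9.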

Additional observations from a re-analysis of the deposited data

How the results depend on the processing

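All 10 class II genes kept a positive difference under every alternative that tested them, and their median lay between 0.89 and 1.77. The filter on the lowest 50% of genes left 8 of them. The number of class II genes called, 1 in the analysis reported, was 0 with quantile normalization, with arrays centred on their medians, over all rows and at a threshold of 0.01, was 3 at a threshold of 0.10, and was 1 to 6 when 1 rat was left out. It was 6 without obese rat 2 and 2 without either lean rat. Over all genes, 122 were called in the analysis reported, against 75 with quantile normalization, 262 with a robust variance model, 66 without the lowest 50% of genes, 185 over all rows, 1 at a threshold of 0.01, 301 at 0.10 and 268 to 1081 with a rat left out. Over all rows 48.1% of calls rose, against 91.8% in the analysis reported, and with a rat left out 40.9% (without lean rat 2) to 66.0% (without obese rat 2). The rat numbers are names with no stated pairing, and the deviations of equally numbered rats correlated at 0.020 across genes. With the rat number as a replicate block, 327 genes, 4 class II genes (RT1-Ba, RT1-Bb, RT1-Da and Cd74) and 3 processing genes were called. Processing genes, with none called in the analysis reported, had 2 calls without a variance trend, 3 with the robust model, 2 with array weights, 1 without the lowest 25% and 1 without the lowest 50% of genes, and 0 to 4 with a rat left out. The transcription list had 1 call with the robust model and 0 to 2 with a rat left out, and the costimulation list 0 to 2. The lists of other class II chains and class I genes had no call under any alternative run for them (0 and 1 genes at an unadjusted p under 0.05). At a threshold of 0.10, 3 processing genes (Ctsd, Ctsz and Ifi30), 1 transcription gene (Spi1) and 1 costimulation gene (Icos) were called. The cause of these changes was not tested. With a rat left out, 1 group has a single array, assumed to vary like the other group.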
